A study of Arabidopsis thaliana with 18 samples.

Results

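The interaction of the Arabidopsis thaliana mutations yak1 and lst8-1 was measured in 12 of the 18 RNA sequencing libraries of a series on tor, lst8, yak1 and maktor mutants. The libraries were those titled yak1lst8-1, lst8-1, yak1 and Col0, with 3 libraries of each genotype, and they form a 2 x 2 design. The yak1lst8-1 plants carry both mutations, the lst8-1 and yak1 plants carry 1 mutation each, and Col0 is the wild-type accession that all of them share. All plants were sampled whole at Boyes stage 1.02, with no treatment, from in vitro cultures at 20 °C under days of 16 h light, on 0.3% sucrose. The design text calls the mutations knock-outs, and the labels do not describe the alleles further. The design text speaks of 2 biological replicates although the titles number 3 libraries of each genotype, so the p-values below may in part reflect technical spread. Any 2 libraries of 1 genotype differed by more than counting noise, with a chi-square per degree of freedom between 3.35 and 21.9.

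TOR is a protein kinase that promotes growth, translation and anabolic metabolism when nutrients and light are plentiful. LST8 is a WD40 protein that binds the kinase domain of TOR and stabilises the complex, and plants without LST8-1 grow slowly and respond poorly to long days. YAK1 is a kinase of the DYRK family that restrains growth and acts in opposition to TOR in yeast and in plants. A 2 x 2 design asks whether the change that comes with 1 mutation depends on the other. The interaction was taken as yak1lst8-1 minus lst8-1 minus the quantity yak1 minus Col0, on the log2 scale, and it equals the difference between the lst8-1 change in a yak1 background and the lst8-1 change in the Col0 background. A value of 0 means that the effects of both mutations add up as log2 changes, that is, multiply as levels.

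The targeted genes were examined first. LST8-1 (AT3G18140) had 1.62, 1.99 and 0.915 CPM (counts relative to the scaled library size) in yak1lst8-1, 2.34, 2.09 and 2.39 CPM in lst8-1, 52.5, 52.8 and 48.5 CPM in yak1, and 53.9, 47.7 and 49 CPM in Col0. It was thus near 0 in all libraries labelled with the lst8-1 allele and did not overlap with the others. YAK1 (AT5G35980) transcript was higher, not lower, in the libraries labelled with the yak1 allele. It had 406, 331 and 261 CPM in yak1lst8-1, 125, 123 and 130 CPM in lst8-1, 396, 317 and 243 CPM in yak1, and 97.7, 136 and 130 CPM in Col0. A count over the whole gene does not show whether the transcript is intact, so the YAK1 level goes against a loss of transcript and checks nothing about the protein. The names yak1 and yak1lst8-1 therefore stand for the libraries labelled so in all that follows, and each direction given for them rests on these labels. The interaction was -0.64 for LST8-1 (adjusted p = 0.196) and 0.01 for YAK1 (adjusted p = 0.994), and neither was called. TOR and RAPTOR1, the kinase and its substrate-binding partner, had interactions of -0.15 (adjusted p = 0.78) and -0.28 (adjusted p = 0.394).

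Among genes with a called interaction the main pattern was suppression: genes that were far from Col0 in lst8-1 were nearer to Col0 in yak1lst8-1. Of 20456 genes tested with the quasi-likelihood test of edgeR, 338 (1.65%) had an interaction at an adjusted p below 0.05, the threshold for every call here. The interaction was positive in 209 genes (1.02%) and negative in 129 (0.631%), and 112 and 59 of these were at least 2-fold. Of the 338 genes, 302 (1.48% of all tested genes and 89.3% of the called interactions) met the rule for suppression of the lst8-1 change: they were called in lst8-1 against Col0, moved back in yak1lst8-1 against lst8-1 by a called amount, and ended nearer to Col0. Most of the 4869 genes called in lst8-1 against Col0 (23.8% of all tested genes) did not meet this rule. In 192 of the 302 genes lst8-1 was below Col0, and in 110 it was above. The yak1lst8-1 plants did not differ from Col0 by a called amount in 211 of them (8.46% of all genes were called higher and 7.06% lower in that comparison). In 245 of them yak1 alone was not called against Col0 (9.11% of all genes were called there). Neither lack of a call was more frequent than among all genes. In 22 genes yak1lst8-1 was called on the far side of Col0.

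Other patterns were rare among called interactions. Suppression of the yak1 change was found in 3 genes (0.0147%), of which 2 were also counted under suppression of the lst8-1 change. Synergy was found in 2 genes (0.00978%), both lower. A combined change less than additive, in genes that both single mutants moved the same way, was found in 22 genes (0.108%). A further 11 genes (0.0538%) met none of these rules. The chromosomes did not stand apart, with 1.54% to 1.77% of their tested genes called on chromosomes 1 to 5. Additivity was asked of the 751 genes that were called in both single mutants. Of these, 86 had a called interaction, and 486 (2.38% of all tested genes, 64.7% of the 751) had an interaction that was not called with a 95% interval within 1 log2 unit of 0, and are called additive within bounds. The single mutants moved 292 of these 486 genes in the same direction and 194 in opposite directions. Over all 20456 tested genes, 73.1% had a 95% interval of the interaction within 1 log2 unit of 0, and 3165 had an interaction at an unadjusted p below 0.05. Counts of either kind for the lists below are to be read beside these. A second tool, DESeq2, called 425 interactions positive and 291 negative among all genes, to be read beside its counts for the lists.

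These counts depended on single libraries. The 338 calls became 149 without Col0 replicate 2, 196 without lst8-1 replicate 1, 154 without lst8-1 replicate 2, 178 without yak1 replicate 2, 124 without yak1lst8-1 replicate 2 and 168 without yak1lst8-1 replicate 3. The 302 suppressed genes became 139, 173, 140, 166, 113 and 154 in the same order of left-out libraries. The 486 additive genes became 243 without Col0 replicate 2, 312 without Col0 replicate 3, 270 without lst8-1 replicate 2 and 275 without yak1 replicate 2. The 22 less than additive genes became 8, 11, 9, 10 and 11 without Col0 replicate 2, lst8-1 replicate 2, yak1 replicate 2, yak1lst8-1 replicate 2 and yak1lst8-1 replicate 3. The 3 genes with suppression of the yak1 change became 1 without Col0 replicate 2, lst8-1 replicate 2, yak1 replicate 1, yak1 replicate 2 or yak1lst8-1 replicate 2. The 2 synergy genes became 0 without Col0 replicate 2, lst8-1 replicate 2, yak1lst8-1 replicate 2 or yak1lst8-1 replicate 3, and 4 to 6 without Col0 replicate 3, lst8-1 replicate 3, yak1 replicate 3 or yak1lst8-1 replicate 1.

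The change with each mutation was also set side by side in both backgrounds, in comparisons that share no library. The 2429 genes higher in lst8-1 than in Col0 had a median log2 change of 0.233 in yak1lst8-1 against yak1, where their median in lst8-1 against Col0 was 0.649, and 85% of them kept the sign. The 2440 genes lower in lst8-1 had medians of -0.151 in yak1lst8-1 against yak1 and -0.55 in lst8-1 against Col0, and 80% kept the sign. By these medians the lst8-1 change had mostly the same direction and a smaller size where the yak1 allele was present. Since the genes were selected on lst8-1 against Col0, the value in that comparison is inflated by the selection. Selected the other way, the 279 genes higher in yak1lst8-1 than in yak1 had a median of 0.809 there and of 1.07 in lst8-1 against Col0, and the 134 lower genes had medians of -0.642 and -0.7. For the change with yak1 the picture depended on the comparison that selected the genes. The 896 genes higher in yak1 than in Col0 had medians of 0.544 in yak1lst8-1 against lst8-1 and 0.602 in yak1 against Col0, and the 968 lower genes had medians of -0.51 and -0.529. The 3080 genes higher in yak1lst8-1 than in lst8-1 had medians of 0.549 there and 0.223 in yak1 against Col0, and the 2923 lower genes had medians of -0.587 and -0.252. Each change is inflated in the comparison that selected its genes. Over all tested genes the medians of every comparison used here lay between -0.0115 and 0.00272. The number of genes called in yak1lst8-1 against yak1, 413 in all (2.02%), was 212 and 132 without yak1 replicates 1 and 2, and 246, 141 and 255 without yak1lst8-1 replicates 1, 2 and 3. The number called in yak1 against Col0, 1864 (9.11%), was 996 without Col0 replicate 2 and 1071 without yak1 replicate 2.

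**Figure D1:**
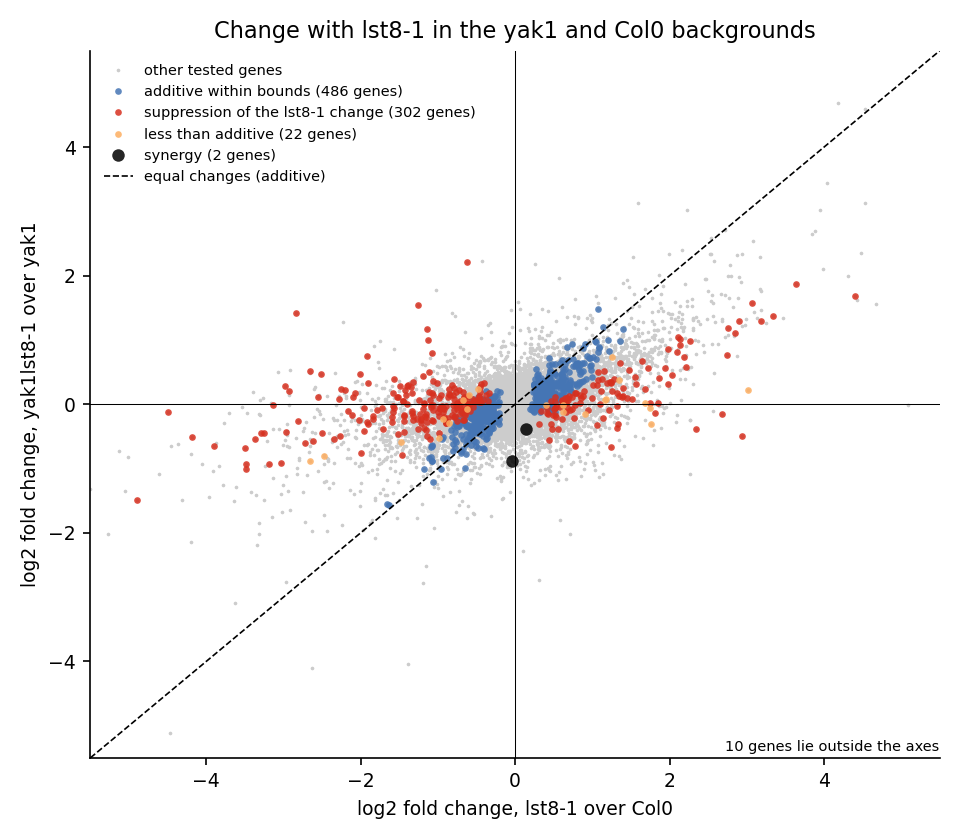
Each point is 1 tested gene, with the log2 fold change of lst8-1 over Col0 on the horizontal axis and of yak1lst8-1 over yak1 on the vertical axis; the dashed line marks equal changes. Of the 302 genes with suppression of the lst8-1 change, 285 lie nearer to the horizontal line at 0 than to the dashed line. Their rule asked for an interaction away from the dashed line, so this position was in large part set by the selection. The 486 genes additive within bounds were selected to lie near the dashed line.

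Aliphatic glucosinolates are sulfur-rich defence compounds of the Brassicaceae made from methionine, and their genes showed suppression more often than any other list of at least 10 tested genes. Of 18 tested genes of their synthesis and regulation, 6 (33.3%) had a called interaction, all positive, against 1.02% of all genes called positive. The median interaction of the 18 genes was 0.71, against 0.00272 over all tested genes. The median change was -0.03 in yak1lst8-1 against yak1 and -0.78 in lst8-1 against Col0, and 12 of the 18 genes were called lower in lst8-1, as were 11.9% of all genes. MYB29 (AT5G07690), an R2R3-MYB activator of the pathway, had 8.67, 12.3 and 11.1 CPM in yak1lst8-1, 1.38, 1.69 and 1.31 CPM in lst8-1, 6.87, 9.25 and 6.97 CPM in yak1, and 9.39, 8.69 and 7.3 CPM in Col0. Only the lst8-1 libraries were low, and they overlapped with no other group. Its interaction was 2.98 ± 0.27 (SE; adjusted p = 9.57e-05, edgeR).

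CYP79F1 (AT1G16410), which turns chain-elongated methionine into aldoximes, followed the same pattern with 27.9, 28.9 and 19 CPM in yak1lst8-1, 3.49, 3.5 and 3.78 CPM in lst8-1, 26.4, 23.5 and 16.1 CPM in yak1, and 35.8, 27.1 and 19.3 CPM in Col0. The lst8-1 libraries were again the low ones, while the other 3 groups overlapped, and the interaction was 3.13 ± 0.37 (adjusted p = 0.00158). CYP83A1 (AT4G13770), the next enzyme, was lowered less, with 66.2, 86.3 and 80.2 CPM in yak1lst8-1, 36.6, 39.1 and 32.6 CPM in lst8-1, 74.1, 98.8 and 89.1 CPM in yak1, and 96.3, 97.8 and 99.1 CPM in Col0. Its interaction was 1.26 ± 0.16 (adjusted p = 0.00141), and the yak1lst8-1 libraries stayed below those of Col0. IMD1 (AT5G14200), an isopropylmalate dehydrogenase of methionine chain elongation, had an interaction of 0.80 ± 0.13 (adjusted p = 0.00827). These 4 genes kept the call without any 1 library. The other called members were FMO_GS-OX1, an S-oxygenase of the side chain (1.70, adjusted p = 0.0369), and BCAT4, the first enzyme of chain elongation (0.70, adjusted p = 0.0319); both are outside the rule for named genes and were picked after their values were seen. FMO_GS-OX1 lost the call without Col0 replicate 1 or 2, any 1 lst8-1 library, yak1 replicate 1, or yak1lst8-1 replicate 1 or 2. BCAT4, which was less than additive, lost it without Col0 replicate 1 or 2, lst8-1 replicate 1 or 3, yak1 replicate 1 or 3, or yak1lst8-1 replicate 2 or 3, and when all 18 libraries were fitted (adjusted p = 0.141).

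The sequence before the annotated start is shown for genes of aliphatic glucosinolates and cold, the 2 lists with the largest share of called interactions among those with at least 10 tested genes. Windows of 250 bases before the start were read from the TAIR10.1 reference of RefSeq for the 6 genes that the rule took, and searched on both strands for the G-box CACGTG, the W-box core TTGACC, the evening element AAAATATCT, the telo-box AAACCCTA and the site II element TGGGCC. A G-box was present in 2 of the windows, those of CYP83A1 and COR413IM1, with its first base 43 and 14 bases before the start. No other motif was found in the 6 windows. Among the windows of 20343 tested genes, 7.16% held the G-box, 12.3% the W-box core, 2.48% the evening element, 3.5% the telo-box and 16.1% site II. The motifs do not overlap in the windows shown, and a match describes letters, not binding. Capitals mark the G-box, and each sequence reads 5′ to 3′ toward the gene. MYB29 lies on the plus strand at chr5:2446419-2446668, CYP79F1 on the plus strand at chr1:5608432-5608681, CYP83A1 on the minus strand at chr4:7992430-7992679 and COR413IM1 on the minus strand at chr1:10289667-10289916, all in TAIR10.1. The window of COR314-TM2 overlaps the neighbouring gene COR413IM1 and is not shown, and neither is that of ERD10.
MYB29: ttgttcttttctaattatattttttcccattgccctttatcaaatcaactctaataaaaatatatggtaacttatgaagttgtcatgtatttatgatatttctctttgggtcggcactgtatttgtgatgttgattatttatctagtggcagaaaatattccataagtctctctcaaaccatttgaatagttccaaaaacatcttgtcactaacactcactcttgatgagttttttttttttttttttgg
CYP79F1: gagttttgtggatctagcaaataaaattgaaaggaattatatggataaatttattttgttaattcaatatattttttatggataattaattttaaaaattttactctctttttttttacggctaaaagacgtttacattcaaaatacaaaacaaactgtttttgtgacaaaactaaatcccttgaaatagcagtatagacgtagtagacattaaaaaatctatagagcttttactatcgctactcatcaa
CYP83A1: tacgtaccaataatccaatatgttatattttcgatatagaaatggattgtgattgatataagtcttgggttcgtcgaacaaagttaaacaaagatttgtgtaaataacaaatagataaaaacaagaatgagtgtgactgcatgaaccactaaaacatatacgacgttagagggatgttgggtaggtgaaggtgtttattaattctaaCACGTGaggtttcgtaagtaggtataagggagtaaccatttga
COR413IM1: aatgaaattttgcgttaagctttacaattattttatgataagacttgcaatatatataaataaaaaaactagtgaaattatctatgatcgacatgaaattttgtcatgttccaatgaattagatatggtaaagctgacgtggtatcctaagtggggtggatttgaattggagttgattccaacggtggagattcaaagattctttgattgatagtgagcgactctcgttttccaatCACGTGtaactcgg

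Genes of glucosinolate breakdown, which release isothiocyanates or nitriles when tissue is damaged, had 3 called interactions among 8 tested genes, all positive and all suppression. Over all genes 1.02% were called positive and 1.48% met the rule for suppression of the lst8-1 change. ESM1 (AT3G14210), a modifier that favours isothiocyanates over nitriles, had 62.3, 58.4 and 63.2 CPM in yak1lst8-1, 3.43, 4.18 and 5.32 CPM in lst8-1, 103, 92.5 and 91.7 CPM in yak1, and 71.2, 61.7 and 58 CPM in Col0. The yak1lst8-1 libraries overlapped with Col0, while every lst8-1 library was lower and every yak1 library higher. Its interaction of 3.25 ± 0.17 (adjusted p = 3.29e-07) was the smallest adjusted p among the genes named here. TGG2 (AT5G25980), a myrosinase that hydrolyses glucosinolates, had 69.4, 71.8 and 73.2 CPM in yak1lst8-1, 10.2, 10.3 and 9.02 CPM in lst8-1, 127, 106 and 78.4 CPM in yak1, and 93.1, 95.8 and 118 CPM in Col0. Its lst8-1 libraries were the low ones and the yak1lst8-1 libraries came just below both yak1 and Col0, with an interaction of 2.83 ± 0.21 (adjusted p = 3.12e-05). TGG1, its more abundant paralog, had an interaction of 0.72 ± 0.16 (adjusted p = 0.0435), which was not called without Col0 replicate 2 or 3, lst8-1 replicate 1 or 2, yak1 replicate 1 or 2, or yak1lst8-1 replicate 2 or 3. Of 13 tested genes of indolic glucosinolate synthesis, which starts from tryptophan, edgeR and DESeq2 each called 0 interactions, 3 had an unadjusted p below 0.05 (3165 of all 20456 genes), and the median was 0.19.

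**Figure D2:**
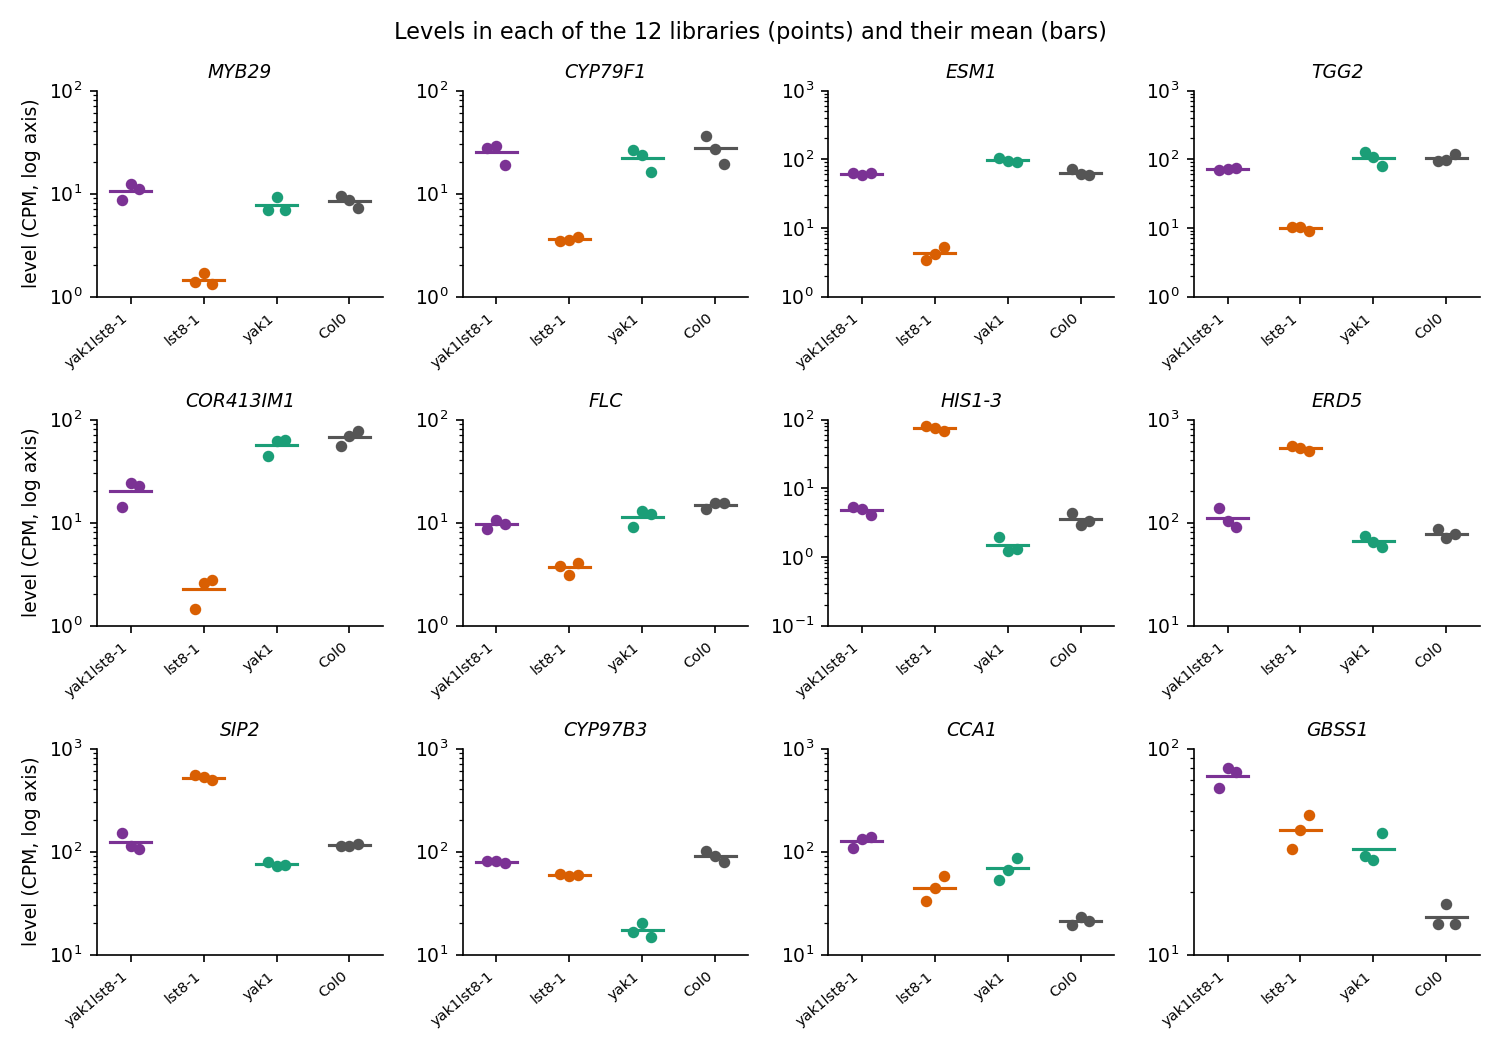
Levels in CPM on log axes for 12 genes, with 1 point for each of the 3 libraries of a genotype and a bar at their mean. In 6 panels, from MYB29 to FLC, the lst8-1 libraries lie below all others; in HIS1-3, ERD5 and SIP2 they lie above all others; in CYP97B3 yak1 is low; and in CCA1 and GBSS1 the yak1lst8-1 libraries lie above both single mutants.

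Cold-regulated genes, many of them targets of the CBF activators, had the next largest share among lists of at least 10 tested genes. Of 14 tested genes, 4 (28.6%) had a called interaction, all positive, against 1.02% of all genes called positive, and the median interaction was 0.62. COR413IM1 (AT1G29395), an inner membrane protein of the chloroplast envelope, had 14.3, 24.2 and 22.5 CPM in yak1lst8-1, 1.44, 2.6 and 2.77 CPM in lst8-1, 44.4, 61.9 and 63.3 CPM in yak1, and 54.9, 69.3 and 78 CPM in Col0. The suppression was partial, since the yak1lst8-1 libraries lay between lst8-1 and the overlapping yak1 and Col0 libraries; the interaction was 3.41 ± 0.38 (adjusted p = 0.00141). COR314-TM2 (AT1G29390), its neighbour and close relative, had 43.2, 50.1 and 47.7 CPM in yak1lst8-1, 34.5, 31.1 and 34 CPM in lst8-1, 49, 53.1 and 55.8 CPM in yak1, and 55.7, 58.7 and 60.7 CPM in Col0. Its interaction was 0.65 ± 0.12 (adjusted p = 0.0124), in the same order of genotypes but with a far smaller span. Both counts hold only reads with a single best position.

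The dehydrins and related stress proteins of the cold list were nearer to the threshold. KIN2 had an interaction of 0.99 ± 0.23 (adjusted p = 0.0494) and suppression. ERD10, a dehydrin, had 117, 115 and 125 CPM in yak1lst8-1, 93.6, 112 and 127 CPM in lst8-1, 91.3, 107 and 126 CPM in yak1, and 154, 175 and 173 CPM in Col0, so that all mutants overlapped below Col0. Its interaction of 0.73 ± 0.17 (adjusted p = 0.048) was less than additive. KIN2 and ERD10 each lost the call in 10 of the 12 fits that left out 1 library and kept it without lst8-1 replicate 3 or yak1 replicate 3; without any of the other 10 libraries the count of called cold genes was 2. The uncharacterised cold-list gene AT4G33980 was additive, with 6.47, 6.64 and 3.8 CPM in yak1lst8-1, 19, 16 and 12.5 CPM in lst8-1, 13.6, 9.08 and 7.38 CPM in yak1, and 28.1, 26.1 and 33.5 CPM in Col0. Its interaction was 0.04, with a 95% interval of -0.71 to 0.79.

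Abscisic acid is the hormone of drought and seed dormancy, and its genes combined suppression with shared changes. Of 28 tested genes of abscisic acid metabolism, signalling and drought response (5 further listed genes had too few counts), 3 had a called interaction, all negative, where 0.631% of all genes did. HIS1-3 (AT2G18050), a drought-induced linker histone H1, had 5.32, 4.93 and 4.08 CPM in yak1lst8-1, 79.7, 76.1 and 69.1 CPM in lst8-1, 1.92, 1.21 and 1.3 CPM in yak1, and 4.33, 2.9 and 3.32 CPM in Col0. It was high in lst8-1 alone, and yak1lst8-1 overlapped with Col0. Its interaction was -2.72 ± 0.26 (adjusted p = 0.000287). CYP707A1 and CYP707A2, the 8'-hydroxylases that break down abscisic acid, had interactions of -1.20 ± 0.22 (adjusted p = 0.0156) and -1.38 ± 0.22 (adjusted p = 0.00597). CYP707A2 had 7.11, 5.88 and 6.47 CPM in yak1lst8-1, 12.4, 12.7 and 14.7 CPM in lst8-1, 4.12, 5.23 and 3.9 CPM in yak1, and 3.08, 3.81 and 3.44 CPM in Col0, so the yak1lst8-1 libraries came between lst8-1 and the others. CYP707A1 was not called without yak1lst8-1 replicate 2.

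The rest of the abscisic acid list did not follow these 3 genes. The median interaction of the 28 genes was 0.0039, and the median change was 0.52 in yak1lst8-1 against yak1 and 0.34 in lst8-1 against Col0, with 10 genes (1.36% of all genes) and 14 genes (11.9%) called higher. The lst8-1 change of the list was thus as large with the yak1 allele as without it, by these medians. An interval of the interaction within 1 log2 unit of 0 was found in 17 of the 28 genes, a smaller share than the 73.1% of all tested genes.

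Of the 8 genes that the rule took for the largest negative interactions, 4 encode enzymes that break down amino acids or sugars, a grouping made after their values were seen. ERD5 (AT3G30775), the proline dehydrogenase of mitochondria, had 139, 104 and 91.1 CPM in yak1lst8-1, 553, 526 and 498 CPM in lst8-1, 74.6, 64.6 and 58 CPM in yak1, and 86.4, 70.4 and 77.5 CPM in Col0. The lst8-1 libraries were far above all others, and yak1lst8-1 stayed slightly above Col0; the interaction was -1.99 ± 0.20 (adjusted p = 0.000316). SIP2 (AT3G57520), a raffinose-hydrolysing alkaline alpha-galactosidase, had 152, 114 and 106 CPM in yak1lst8-1, 548, 526 and 491 CPM in lst8-1, 78.5, 72.5 and 73.5 CPM in yak1, and 113, 113 and 118 CPM in Col0. Here yak1lst8-1 overlapped with Col0, and the interaction was -1.45 ± 0.16 (adjusted p = 0.000428). MGL, the methionine gamma-lyase, had an interaction of -1.63 ± 0.25 (adjusted p = 0.0058). BCAT2, a branched-chain amino acid aminotransferase, had an interaction of -1.63 ± 0.38 (adjusted p = 0.0458) at levels below 8 CPM, and it kept the call only without Col0 replicate 3, lst8-1 replicate 3 or yak1 replicate 3.

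The lists fixed for these functions held 1 or 2 called members each, all negative, where 0.631% of all genes had a called negative interaction. The called share was 7.69% in sugar starvation, 16.7% in proline metabolism and 7.69% in inositol and raffinose metabolism. ERD5 and BCAT2 were the only called members of the 26 tested sugar starvation genes, whose median interaction was -0.23; the count was 1 without Col0 replicate 2, lst8-1 replicate 1 or 2, yak1 replicate 1 or 2, or yak1lst8-1 replicate 2 or 3, and 5 without Col0 replicate 3. ERD5 was also the only called gene of 6 in proline metabolism (2 called without Col0 replicate 1), although all 6 were called higher in lst8-1 than in Col0 (11.9% of all genes). SIP2 was the only one of 13 in inositol and raffinose metabolism (2 called without Col0 replicate 3 or yak1lst8-1 replicate 1).

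Iron deficiency genes, which are switched on in roots that lack iron, had the largest median interaction of the lists beside that of aliphatic glucosinolates. Of 24 tested genes, 2 (8.33%) had a positive and 1 a negative called interaction, against 1.02% and 0.631% of all genes. The median interaction of the 24 genes was 0.71. Their median change was 0.11 in yak1lst8-1 against yak1 and -0.61 in lst8-1 against Col0, with 0 genes (0.655% of all genes) and 11 genes (11.9%) called lower. BHLH38 (AT3G56970), one of the Ib-type bHLH regulators of iron uptake, had 8.73, 8.53 and 6.4 CPM in yak1lst8-1, 1.14, 1.36 and 1.62 CPM in lst8-1, 5.84, 5.39 and 5.88 CPM in yak1, and 7.09, 5.49 and 3.92 CPM in Col0. The lst8-1 libraries were the low ones and did not overlap with any other group, and the interaction was 2.47 ± 0.32 (adjusted p = 0.00141). BHLH39, its tandem paralog, had an interaction of 1.62 ± 0.35 (adjusted p = 0.0304). It was not called without Col0 replicate 1 or 2, lst8-1 replicate 1 or 2, yak1 replicate 2, or any 1 yak1lst8-1 library.

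F6'H1, an enzyme of coumarin synthesis that serves iron mobilisation, went the other way, with an interaction of -0.65 ± 0.15 (adjusted p = 0.0385); it kept the call only without Col0 replicate 1 or yak1 replicate 1. The list's count of 2 positive calls was 1 without Col0 replicate 1, lst8-1 replicate 1 or 2, yak1 replicate 2, or yak1lst8-1 replicate 2 or 3, and 4 and 6 without Col0 replicate 3 and lst8-1 replicate 3. By DESeq2 11 of the 24 genes had a positive call, against 425 of all 20456 genes. The summed level of 17 root hair genes, a marker of the cells that take up iron, ranged from 768 to 796 CPM in yak1lst8-1, 870 to 1474 CPM in lst8-1, 453 to 673 CPM in yak1 and 386 to 597 CPM in Col0, with none of the markers at 0 throughout. Their part in the result was not tested; in whole plants, fewer cells of a type and less RNA per cell cannot be told apart.

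Root hair genes themselves had negative interactions in all but 1 of 16 tested members, with a median of -0.70. The median change was 0.46 in yak1lst8-1 against yak1 and 1.27 in lst8-1 against Col0, with 1 gene (1.36% of all genes) and 11 genes (11.9%) called higher. Only RSL4 (AT1G27740), the bHLH factor that sets root hair growth, was called for the interaction (-1.28 ± 0.26, adjusted p = 0.0263). It had 7.34, 5.78 and 6.9 CPM in yak1lst8-1, 13.5, 17.1 and 21.8 CPM in lst8-1, 3.85, 3.38 and 4.24 CPM in yak1, and 3.61, 4.19 and 4.4 CPM in Col0. The yak1lst8-1 libraries lay between lst8-1 and the overlapping other groups. The call was lost, and the count was 0, without Col0 replicate 1 or 2, lst8-1 replicate 2, yak1 replicate 1 or 3, or yak1lst8-1 replicate 2 or 3.

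Cell wall loosening genes, the expansins and xyloglucan endotransglucosylases that let cells enlarge, were split. Of 29 tested genes 4 had a positive and 1 a negative called interaction (1.02% and 0.631% of all genes). EXPA5 (AT3G29030) had 19.6, 23.6 and 23.1 CPM in yak1lst8-1, 10.9, 12.4 and 12.8 CPM in lst8-1, 14.6, 18.6 and 19.3 CPM in yak1, and 24.3, 26.8 and 21.4 CPM in Col0. The yak1 allele went with a higher level in the lst8-1 background (log2 change 0.87) and a lower one in the Col0 background (-0.47), and the interaction was 1.34 ± 0.18 (adjusted p = 0.00216). EXPA3 had an interaction of 0.99 ± 0.18 (adjusted p = 0.0136), XTH31 of 1.20 ± 0.23 (adjusted p = 0.0216), and EXPA10, outside the rule for named genes and picked after its value was seen, of 1.26 ± 0.26 (adjusted p = 0.0322). XTH31 was not called without Col0 replicate 2, lst8-1 replicate 1 or 2, or yak1lst8-1 replicate 2 or 3, and EXPA10 without these or yak1 replicate 1 or 2.

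XTH24 (AT4G30270) was the exception in direction, with 120, 105 and 93.7 CPM in yak1lst8-1, 276, 254 and 298 CPM in lst8-1, 108, 101 and 114 CPM in yak1, and 100, 106 and 124 CPM in Col0. It was high in lst8-1 alone, and the other 3 groups overlapped; its interaction was -1.34 ± 0.15 (adjusted p = 0.000572). The 4 positive calls became 2 without Col0 replicate 2, lst8-1 replicate 2, or yak1lst8-1 replicate 2 or 3, 7 without yak1 replicate 3 and 8 without yak1lst8-1 replicate 1; the negative call became 3 without Col0 replicate 3.

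Further called interactions came from other lists with 1 or 2 called members each, where 1.02% of all genes were called positive and 0.631% negative. These members are named here after their values were seen. FLC (AT5G10140), the repressor of flowering, had 8.61, 10.5 and 9.71 CPM in yak1lst8-1, 3.79, 3.11 and 4.08 CPM in lst8-1, 9, 12.9 and 12.2 CPM in yak1, and 13.6, 15.5 and 15.3 CPM in Col0. It was lowest in lst8-1 and below Col0 in yak1lst8-1 and yak1 too, without overlap, and its interaction was 1.78 ± 0.22 (adjusted p = 0.00141). SOC1, a floral activator that FLC represses, also had a positive interaction (0.60 ± 0.12, adjusted p = 0.0267). SOC1 was not called, and the count for 9 flowering genes was 1 and not 2, without Col0 replicate 2, lst8-1 replicate 1 or 2, yak1 replicate 1, or yak1lst8-1 replicate 2 or 3.

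PHO2 (AT2G33770), the ubiquitin-conjugating enzyme that limits phosphate uptake, had 185, 183 and 170 CPM in yak1lst8-1, 569, 547 and 506 CPM in lst8-1, 145, 148 and 138 CPM in yak1, and 143, 185 and 220 CPM in Col0. It was high in lst8-1 alone and its interaction was -1.24 ± 0.17 (adjusted p = 0.00245). In sulfur metabolism 2 of 16 tested genes were called (1.02% of all genes were called positive), GGCT2;1, which degrades glutathione (1.55 ± 0.24, adjusted p = 0.00551), and APR1, which reduces activated sulfate (0.72 ± 0.14, adjusted p = 0.0184). APR1 was not called, and the count was 1, without Col0 replicate 2 or yak1lst8-1 replicate 2. The interaction was positive in 15 of the 16 sulfur genes, with a median of 0.45. An unadjusted p below 0.05 was found in 10 of them and in 3165 of all 20456 genes. CORI3 (AT4G23600), a jasmonate-induced cystine lyase, had 5.72, 5.69 and 5.28 CPM in yak1lst8-1, 0.301, 1.13 and 1.85 CPM in lst8-1, 8.72, 9.65 and 8.47 CPM in yak1, and 11.2, 12 and 12.5 CPM in Col0. The 4 groups did not overlap and lst8-1 was lowest, with its replicate 1 near the 0.192 CPM that a count of 0 alone allows there. The interaction was 2.81 ± 0.41 (adjusted p = 0.00342). CORI3 was the only one of 23 jasmonate and ethylene genes called (2 without yak1 replicate 3 or yak1lst8-1 replicate 1).

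The remaining genes with the largest called interactions belong to none of the lists. PP2-A6 (AT5G45080), a phloem lectin family gene, had 3.64, 3.98 and 4.29 CPM in yak1lst8-1, 0.24, 0.226 and 0.385 CPM in lst8-1, 5.36, 4.5 and 6.29 CPM in yak1, and 2.56, 2.59 and 3.14 CPM in Col0. It was low in lst8-1 and higher in both groups with the yak1 allele than in Col0, and the interaction was 2.84 ± 0.38 (adjusted p = 0.00141). The size of this interaction rests on few reads in lst8-1, where a count of 0 alone allows 0.174 to 0.229 CPM. CYP82F1 (AT2G25160), a cytochrome P450, had 46.8, 39.2 and 33.3 CPM in yak1lst8-1, 82.1, 87.7 and 101 CPM in lst8-1, 20.5, 18.1 and 16.5 CPM in yak1, and 11.7, 12.1 and 13.7 CPM in Col0. No groups overlapped; the yak1 allele went with a lower level in the lst8-1 background (log2 change -1.18) and a higher one in the Col0 background (0.55), and the interaction was -1.73 ± 0.18 (adjusted p = 0.000395). ST4B, a sulfotransferase, had an interaction of -1.60 ± 0.27 (adjusted p = 0.0151) that was not called without yak1lst8-1 replicate 2, and ZFHD1, a zinc finger homeodomain factor, of -1.45 ± 0.26 (adjusted p = 0.0123).

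CYP97B3 (AT4G15110), a cytochrome P450 of the carotene hydroxylase family, was the clearest case of suppression of the yak1 change. It also met the rule for suppression of the lst8-1 change. It had 81.4, 81.3 and 76.5 CPM in yak1lst8-1, 60.6, 57.9 and 59.3 CPM in lst8-1, 16.5, 20.4 and 14.7 CPM in yak1, and 102, 91.4 and 79.9 CPM in Col0. It was low in the libraries labelled yak1 and close to Col0 in yak1lst8-1, where yak1 and lst8-1 each alone were lower than Col0. The yak1 change was 0.43 in the lst8-1 background and -2.41 in the Col0 background, and the interaction was 2.84 ± 0.15 (adjusted p = 3.63e-07). The other genes with suppression of the yak1 change, chosen after their values were seen, were AT5G52070 and AT4G04410, an uncharacterised gene. AT5G52070 encodes an Agenet domain protein and also met both rules for suppression. AT5G52070 averaged 11.2 CPM in yak1lst8-1, 16.4 CPM in lst8-1, 16.6 CPM in yak1 and 12.2 CPM in Col0, so that both single mutants were high and the double mutant was not (negative interaction, adjusted p = 0.0135). AT4G04410 had an interaction of -0.73 (adjusted p = 0.0133). Of the 338 genes, 26 had a yak1 change that was called in both backgrounds in opposite directions.

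Synergy was small where it was found. PDC2 (AT5G54960), a pyruvate decarboxylase, had 60.4, 57 and 54.1 CPM in yak1lst8-1, 96.9, 96.7 and 96.1 CPM in lst8-1, 74.4, 70.4 and 77.8 CPM in yak1, and 87, 83.4 and 92.5 CPM in Col0. The yak1lst8-1 libraries were below all others, and no groups overlapped. The interaction was -0.52 ± 0.10 (adjusted p = 0.0206), and it was not called without Col0 replicate 2, lst8-1 replicate 2, or yak1lst8-1 replicate 2 or 3. The other gene, AT4G16260, which encodes a glycosyl hydrolase, averaged 28.9 CPM in yak1lst8-1, 53.6 CPM in lst8-1, 53.4 CPM in yak1 and 55.0 CPM in Col0. Neither mutation alone changed it by a called amount, and its interaction was -0.85 (adjusted p = 0.0233). It was not called without Col0 replicate 2, lst8-1 replicate 1 or 2, or yak1lst8-1 replicate 2 or 3.

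Salicylic acid metabolism gave a gene with less than additive change. DLO1 (AT4G10500), which hydroxylates salicylic acid, had 3.12, 3.32 and 4.01 CPM in yak1lst8-1, 1.74, 2.03 and 2.39 CPM in lst8-1, 5.15, 3.54 and 4.24 CPM in yak1, and 0.591, 0.533 and 0.663 CPM in Col0. All mutant libraries were above Col0, and yak1lst8-1 overlapped with yak1; the interaction was -2.07 ± 0.34 (adjusted p = 0.00698). The Col0 levels were low, since a count of 0 alone allows 0.182 to 0.233 CPM in the Col0 libraries. DLO1 was the only call among 14 genes of salicylic and pipecolic acid metabolism. For 15 salicylic acid response genes edgeR and DESeq2 called 0 interactions and 1 had an unadjusted p below 0.05. The intervals of these genes were wide, with a median distance of 2.26 log2 units from estimate to bound, and 1 of the 15 lay within 1 log2 unit of 0.

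Of the 6 genes with the largest changes among those additive within bounds, 2 belonged to the morning clock. Morning clock genes, expressed around dawn, were called higher in yak1lst8-1 against yak1 in 5 and in lst8-1 against Col0 in 10 of 12 tested genes (1.36% and 11.9% of all genes), with medians of 0.63 and 0.70. They were called higher in yak1lst8-1 against lst8-1 and in yak1 against Col0 in 7 each (15.1% and 4.38% of all genes), with medians of 0.67 and 0.76. Of the 12 genes, 5 were additive within bounds. CCA1 (AT2G46830), a MYB-related repressor at the core of the clock, had 108, 131 and 139 CPM in yak1lst8-1, 33, 43.8 and 57.3 CPM in lst8-1, 52.6, 66.6 and 87.2 CPM in yak1, and 19.3, 22.9 and 21 CPM in Col0. Every yak1lst8-1 library was above every other library, and every single-mutant library was above Col0. The interaction was -0.21, with a 95% interval of -0.86 to 0.43.

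RVE8 (AT3G09600), an activator related to CCA1, had 35.8, 38.4 and 38.4 CPM in yak1lst8-1, 9.14, 11.4 and 14.2 CPM in lst8-1, 19.8, 17.7 and 20.9 CPM in yak1, and 6.3, 6.93 and 5.19 CPM in Col0. The groups did not overlap, and the interaction was 0.03 (-0.41 to 0.47). Additivity here refers to log2 levels: on the linear scale RVE8 had a called interaction (adjusted p = 0.00815). LNK2, a coactivator, was the only morning gene with a called interaction (-0.52 ± 0.12, adjusted p = 0.0483), a less than additive increase that kept its call only without Col0 replicate 2 or yak1 replicate 1 and was not called when all 18 libraries were fitted (adjusted p = 0.165).

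Evening clock genes were mostly lower with the yak1 allele. Of 11 tested genes, 10 were called lower in yak1lst8-1 against lst8-1 and 7 in yak1 against Col0 (14.3% and 4.73% of all genes), with medians of -0.84 and -0.47. All 11 interactions were negative, with a median of -0.37. None was called by edgeR, where 5 had an unadjusted p below 0.05 (3165 of all 20456 genes), and 1 was called by DESeq2. PRR3 (AT5G60100), a pseudo-response regulator, was additive, with 5.95, 5.12 and 4.08 CPM in yak1lst8-1, 12.6, 10.1 and 8.56 CPM in lst8-1, 14.7, 11.3 and 9.43 CPM in yak1, and 23.8, 20.5 and 20.9 CPM in Col0. The single mutants overlapped between yak1lst8-1 and Col0, and the interaction was -0.16 (-0.72 to 0.40).

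No starch gene had a called interaction by edgeR or DESeq2. Of 18 tested genes of starch degradation, 6 had an unadjusted p below 0.05 (3165 of all 20456 genes). All 18 had an interval of the interaction within 1 log2 unit of 0 (73.1% of all genes), and 7 met the whole rule for additivity (2.38%). BAM9, a beta-amylase family member (AT5G18670), had 62.2, 67.8 and 66 CPM in yak1lst8-1, 40.7, 52.5 and 48.5 CPM in lst8-1, 32.7, 35.1 and 41.8 CPM in yak1, and 16.5, 20.7 and 23.5 CPM in Col0, with an interaction of -0.39 (-0.78 to 0.01). SEX4, a glucan phosphatase (AT3G52180), was lower in all mutants, with 36.1, 39.2 and 30.4 CPM in yak1lst8-1, 39.9, 42.9 and 43.2 CPM in lst8-1, 47.6, 45.8 and 38.4 CPM in yak1, and 70.4, 65.8 and 58.8 CPM in Col0. The mutants overlapped below Col0, and the interaction was 0.31 (-0.01 to 0.63).

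Of the 16 tested genes of starch synthesis, 3 had an unadjusted p below 0.05, 15 had an interval within 1 log2 unit of 0, 2 met the rule for additivity, and the lowest interaction was -1.70. Of these GBSS1 (AT1G32900), the granule-bound amylose synthase, was an additive gene. It had 64.3, 80.3 and 76.6 CPM in yak1lst8-1, 32.5, 40.3 and 47.4 CPM in lst8-1, 30, 28.9 and 38.9 CPM in yak1, and 14.1, 17.6 and 14 CPM in Col0. The single mutants overlapped, yak1lst8-1 was above them, and the interaction was -0.22 (-0.69 to 0.25). Other additive genes by the same rule were UNE10, a bHLH factor (interaction -0.17), and, with opposite changes in the single mutants, a chitinase gene, AT2G43570 (0.19), the sulfate transporter gene SULTR2;1 (0.17) and the autophagy gene ATG18G (-0.18). Of the 31 additive genes that the rule took, 11 were additive without any 1 library, and these are the additive genes given above with an interaction value. The other 20 missed the rule in at least 1 of the 12 fits that left out a library. Among them was DR4 (AT1G73330), a drought-repressed gene and one of the 6 genes with the largest changes. It had 118, 154 and 140 CPM in yak1lst8-1, 488, 631 and 705 CPM in lst8-1, 63, 72.6 and 97.5 CPM in yak1, and 231, 257 and 380 CPM in Col0. The groups did not overlap, and the interaction was -0.25 (-0.91 to 0.41). DR4 was not additive by the rule without Col0 replicate 3, lst8-1 replicate 1, yak1 replicate 1 or 2, or yak1lst8-1 replicate 2 or 3.

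**Figure D3:**
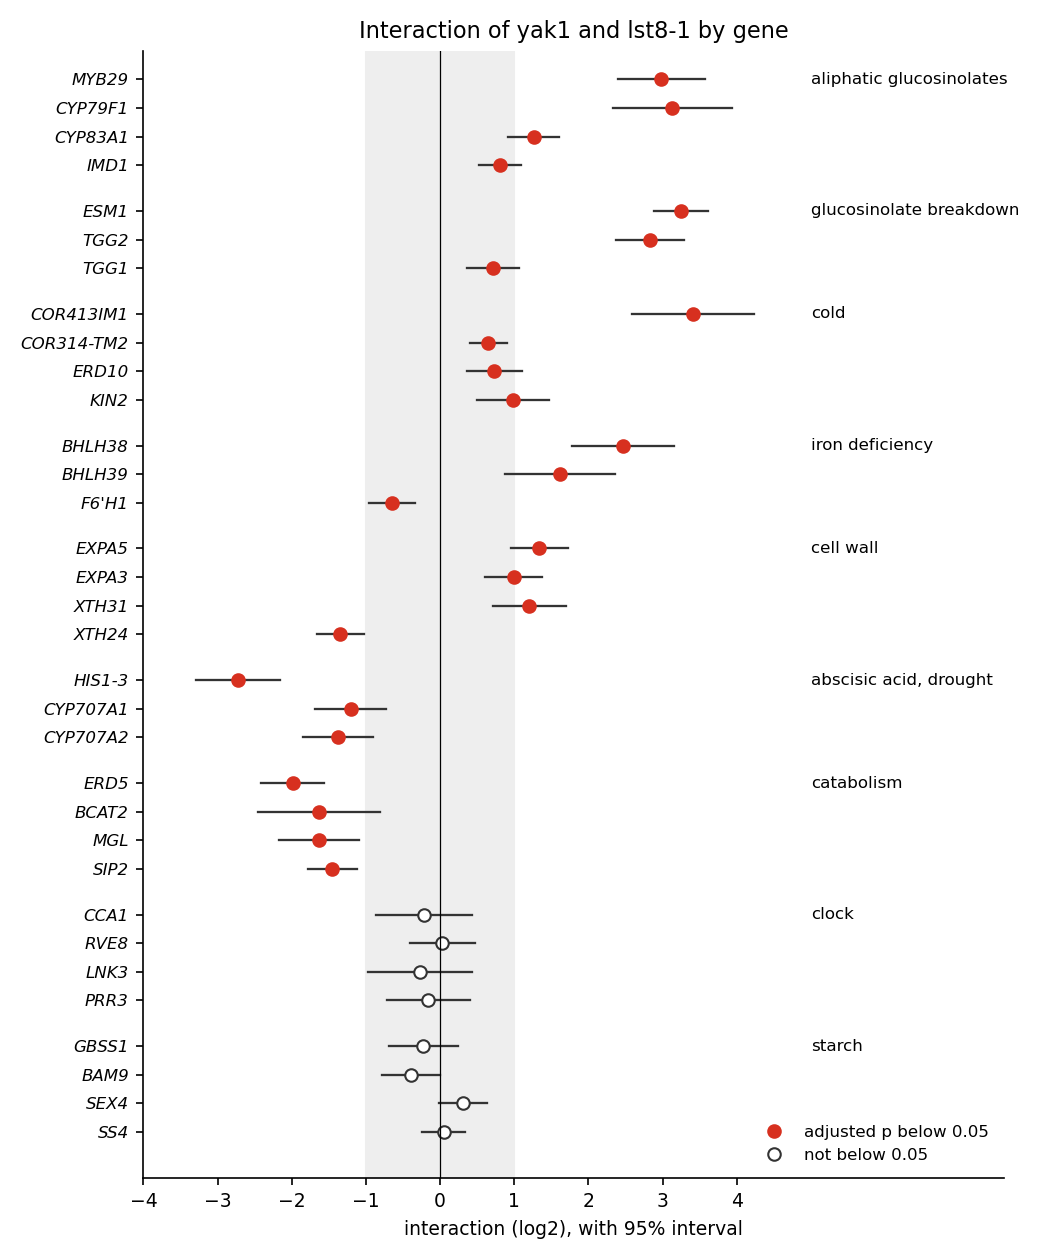
Interaction on the log2 scale with its 95% interval for 33 named genes grouped by function; filled points were called, open points were not, and the grey band spans 1 log2 unit on either side of 0. Called positive values reach 3.41 in COR413IM1 and called negative ones -2.72 in HIS1-3, while the clock and starch genes shown lie within the band.

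Ribosome biogenesis factors, which respond to TOR in many organisms, had interactions of 1 sign without a call. All 35 tested genes had a negative interaction, with a median of -0.32. None was called higher in yak1lst8-1 against yak1 and 13 (11.9% of all genes) were in lst8-1 against Col0, with medians of -0.03 and 0.33, and 27 were called lower in yak1lst8-1 against lst8-1 (14.3% of all genes) and 1 in yak1 against Col0 (4.73%). The interaction itself was called in 0 of 35 by edgeR, with 12 at an unadjusted p below 0.05 (3165 of all 20456 genes). DESeq2 called 4 of the 35, all negative, against 291 negative calls over all genes. The 61 tested cytosolic ribosomal protein genes had a median interaction of -0.10, none was called by edgeR or DESeq2, 1 had an unadjusted p below 0.05, and all 61 intervals lay within 1 log2 unit of 0 (73.1% of all genes).

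Nuclear genes of the photosystems and antennae had no called interaction. Of 39 tested genes 22 were called higher in yak1lst8-1 against lst8-1 (15.1% of all genes) and 2 in yak1 against Col0 (4.38%), a share near that of all genes. None had an interaction called by edgeR or DESeq2 or at an unadjusted p below 0.05, all 39 intervals lay within 1 log2 unit of 0 (73.1% of all genes), and the median interaction was 0.13. The yak1 change is therefore not shown to differ between backgrounds for these genes. For 30 autophagy genes the median interaction was -0.05, with 0 called by either tool, 1 at an unadjusted p below 0.05 and 29 intervals within 1 log2 unit. For 33 genes of cell division the median was 0.14, with 0 called by either tool and 2 at an unadjusted p below 0.05.

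Triterpene, cytokinin and nitrogen genes had no interaction called by edgeR. Of 7 tested genes of triterpene synthesis, whose clustered genes make root metabolites, 4 were called higher in yak1lst8-1 against yak1 (1.36% of all genes) and 4 in lst8-1 against Col0 (11.9%), with medians of 1.41 and 2.18. The median interaction was -0.76, the most negative of the lists with at least 5 tested genes, with 0 called by edgeR, 3 at an unadjusted p below 0.05 (3165 of all 20456 genes) and 1 called by DESeq2. The 9 tested type-A response regulators, primary targets of cytokinin, were called higher in 1 case in yak1lst8-1 against yak1 and in 4 in lst8-1 against Col0 (1.36% and 11.9% of all genes). With the yak1 allele 7 of them were called lower in yak1lst8-1 against lst8-1 and 4 in yak1 against Col0 (14.3% and 4.73% of all genes). Their median interaction was -0.19, with 0 called by edgeR, 1 at an unadjusted p below 0.05 and 1 called by DESeq2. In 26 genes of nitrogen uptake and assimilation the median was 0.14, with 0 called by edgeR, 3 at an unadjusted p below 0.05 and 1 called by DESeq2.

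**Figure D4:**
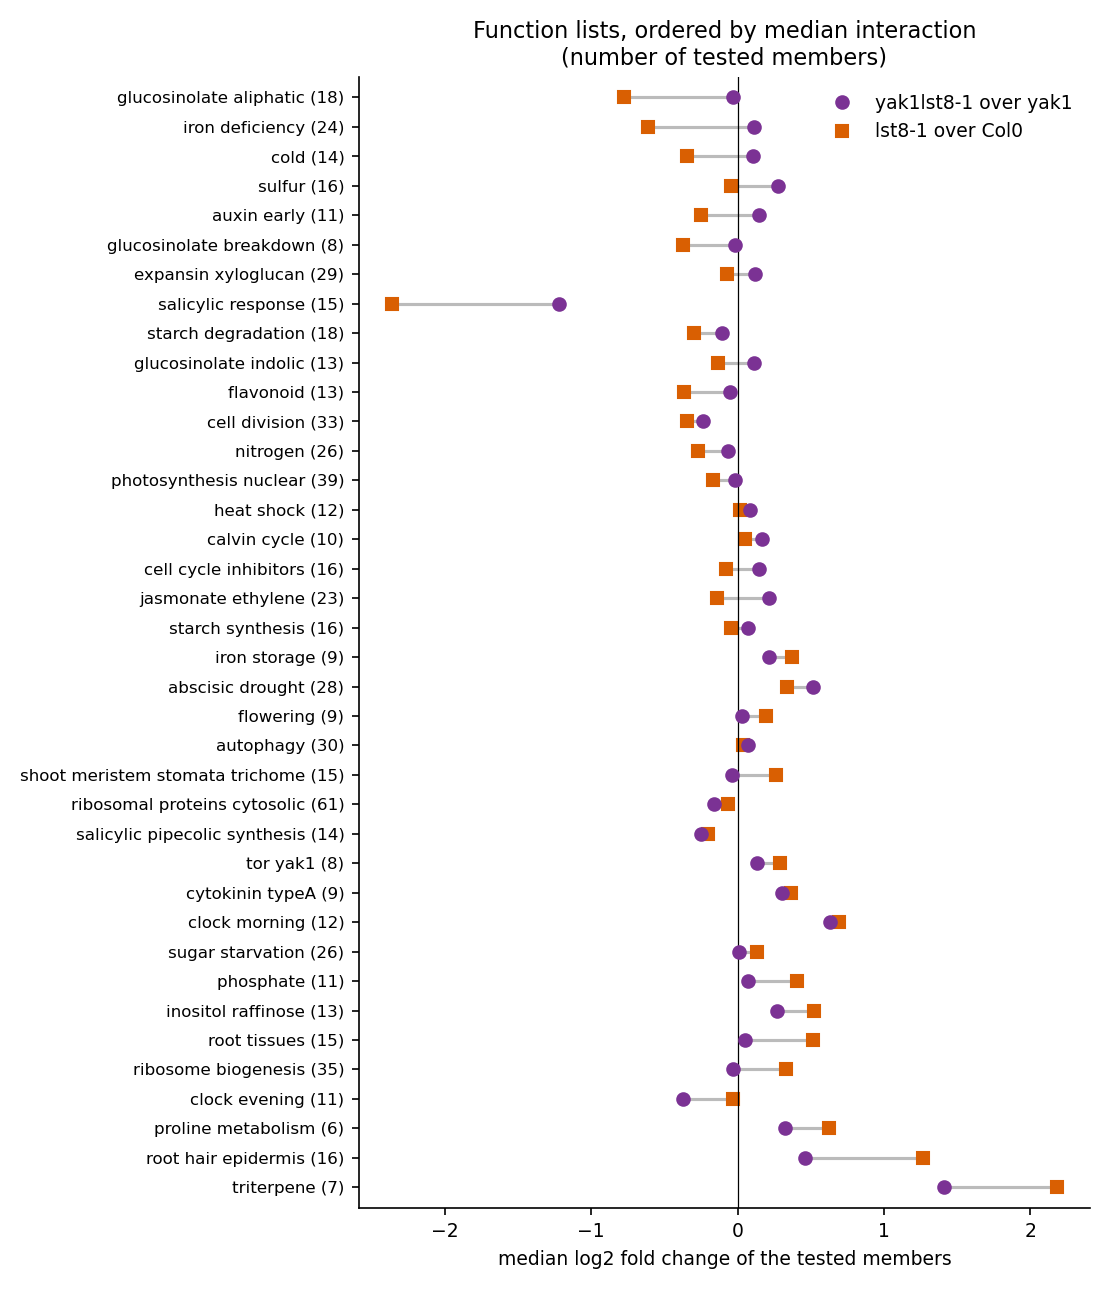
Median log2 fold change of the tested members of each function list with at least 5 tested members, in yak1lst8-1 over yak1 (circles) and in lst8-1 over Col0 (squares), ordered by the median interaction. Aliphatic glucosinolate genes stand at the top, with medians of -0.03 and -0.78, and root hair genes near the bottom, with 0.46 and 1.27; morning clock genes had nearly equal medians of 0.63 and 0.70.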

How the data were processed

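RNA of whole Arabidopsis plants was sequenced as stranded single-end libraries. The submitters' processing notes name TopHat2, Bowtie2 and the TAIR10 build; their versions are not given in the sources used here. The deposited values are raw counts per gene model (33602 models) of reads with a single best position, per the file headers; reads with several positions were 2.00% to 2.22% of those mapped, and are missing from near-identical genes. Use of strand in counting is not given, so overlapping antisense genes are uncertain. Total counts ran from 10801464 to 17281132 in the 12 libraries, which limits genes near 0: a count of 0 allows 0.174 to 0.278 CPM (3 counts, counting error only). The maktor libraries entered only 1 alternative.

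Counts of the 12 libraries were fitted in R 4.3.3 with edgeR 4.0.16 (TMM, filterByExpr by genotype, robust quasi-likelihood with 8 residual degrees of freedom, common biological coefficient of variation 11.7%). Tests were two-sided with Benjamini-Hochberg adjustment over 20456 genes and a threshold of 0.05. Intervals (95%) use the model's standard error, whose median for the interaction was 0.193. The pipeline was tested on simulated data. CPM are scaled by TMM. Gene names, products and starts came from the RefSeq TAIR10.1 annotation, which holds 32835 of the models and names 10654; the files carry identifiers only.

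The members, the 39 function lists and the classes were chosen with earlier results of these data known; 19 of 757 list entries that the annotation did not name were dropped. Named genes were the 4 TOR, LST8-1, RAPTOR1 and YAK1 genes, the 8 largest called interactions of each sign among symbol-bearing genes that reached 5 CPM in 1 genotype, up to 4 called or smallest-p members of lists with at least 3 calls, synergy genes, and the additive genes with the largest changes in both single mutants. Alternatives were RLE factors, library totals, no filter, DESeq2 1.42.0, all 18 libraries, a replicate block, the linear scale, an additive bound of 0.5, an adjusted p below 0.01, and leaving out each library.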

Additional observations from a re-analysis of the deposited data

Results flagged for a closer look

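A difference between backgrounds was tested by the interaction itself, which was called in 338 genes. In 26 of them the change with yak1 was called in both backgrounds in opposite directions. Among the named genes this held for CYP97B3 (interaction 2.84), where the yak1 change was 0.43 in the lst8-1 background and -2.41 in the Col0 background. It held for EXPA5 (interaction 1.34), where it was 0.87 in the lst8-1 background and -0.47 in the Col0 background. It also held for CYP82F1 (interaction -1.73), where it was -1.18 in the lst8-1 background and 0.55 in the Col0 background. With 3 libraries in each group, no test for single outlying libraries was made.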

How the results depend on the processing

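RLE factors, library totals and the absence of a filter gave 341, 389 and 355 called interactions against 338, and 331, 306 and 319 of the 338 were shared in direction; no class of interaction moved by more than 1.5 times. Fitting all 18 libraries gave 435 positive and 279 negative interactions, 605 genes with suppression of the lst8-1 change, 7 of the yak1 change, 4 with synergy and 56 less than additive. DESeq2 gave 425, 291, 599, 5, 5 and 61 in that order, and 703 genes in yak1lst8-1 against yak1. On the linear scale 131 interactions were positive and 261 negative; 211 of the 338 genes were called there with the same sign and 2 had the opposite sign. With an additive bound of 0.5, 175 genes were additive. At an adjusted p below 0.01 there were 52 positive and 28 negative interactions, 76 and 1 genes with suppression of the lst8-1 and the yak1 change, 0 with synergy and 4 less than additive.

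The replicate numbers were not taken to pair the libraries, because pairing was to need a correlation of deviations above 0.1 in every same-number pair, and 4 of the 6 pairs of number 2 were at or below it (-0.0126 to 0.115). The pairs of number 1 (0.321 to 0.715) and number 3 (0.155 to 0.664) were all above it, and other pairs ran from -0.685 to 0.215. Of 12 libraries, 10 correlated best with one of their own number, a hint of pairing from the data and not from the design. The 3 deviations of a genotype sum to 0, so the pairs of number 2 are not independent of the other pairs. Their low correlations are therefore no evidence against pairing. A replicate block gave 889 positive and 621 negative interactions, 1183 and 12 genes with suppression of the lst8-1 and the yak1 change, 37 with synergy, 135 less than additive and 1029 additive. It called 3571 genes in yak1 against Col0, 5134 in yak1lst8-1 against Col0 and 1262 in yak1lst8-1 against yak1. It held 336 of the 338 genes in the same direction. In lists with no call in the fit without a block it called 16 of 35 ribosome biogenesis and 4 of 11 evening clock genes, all negative. It called 2 of 15 salicylic response and 2 of 18 starch degradation genes, all positive, and 3 positive and 1 negative of 26 nitrogen genes. Calls of 1 gene each fell in the starch synthesis, cell division, indolic glucosinolate, cytokinin, auxin, Calvin cycle, iron storage and heat shock lists. These counts are to be read beside the 889 positive and 621 negative block calls among all 20456 genes.

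Without 1 library at a time, positive interactions ranged from 80 to 277 and negative ones from 44 to 157, suppression of the lst8-1 change from 113 to 370 and of the yak1 change from 1 to 4, synergy from 0 to 6, less than additive genes from 8 to 25 and additive genes from 243 to 442. Calls ranged from 996 to 1879 in yak1 against Col0, 2051 to 3508 in yak1lst8-1 against Col0 and 132 to 537 in yak1lst8-1 against yak1. Of the 32 called named genes none changed sign in any alternative, all 32 were called with the other scalings, without a filter, by DESeq2, with all 18 libraries and with the block, 27 on the linear scale, and 22 to 31 without single libraries. The cause of these moves was not tested.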
